A study of Mus musculus with 12 samples.

Results

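The 10 genes described here encode the enzymes and proteins that switch off or dampen the cAMP signal of brown adipose tissue. They were taken by name from the count table of a mouse interscapular brown adipose tissue (iBAT) series: Pde3a, Pde3b, Pde4a, Pde4b, Pde4d, Pde7b, Pde8a, Prkar2b, Rgs2 and Crem. All 10 were among the 61210 genes of the table, and all 10 passed the filter on low counts that kept 16737 genes. The 12 libraries of total RNA came from 20-week-old wild type C57BL/6N mice, 3 for each of 4 groups: control diet (NCD) at 22 °C, NCD at 4 °C, high-fat diet (HFD) at 22 °C and HFD at 4 °C. HFD was given for the last 12 weeks, from 8 weeks of age, and cold lasted 24 h. No transgene or deletion was present, and each library is labelled as a separate sample. The series text calls the tissue inguinal, while the methods of the study call it interscapular. Ucp1, the uncoupling protein that defines brown adipocytes, was at 3789 to 4804 CPM (counts scaled to library size) in the 3 libraries of NCD at 22 °C, and none of the 12 brown adipocyte markers was at 0 throughout. A level above 0 does not tell interscapular from inguinal tissue, and the depot was not tested.

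Cold acts on brown adipocytes mainly through noradrenaline, which binds β-adrenergic receptors, activates the stimulatory G protein and adenylyl cyclase, and so raises cAMP. cAMP releases the catalytic subunits of protein kinase A (PKA) from their regulatory subunits, which starts lipolysis and, through CREB, the transcription of genes such as Ucp1 and Ppargc1a. Phosphodiesterases (PDEs) end the signal by hydrolysing cAMP, and several genes that restrain the pathway are themselves switched on by CREB, which closes feedback loops.

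The groups compared here were judged with counts scaled by TMM and with edgeR's quasi-likelihood test. A gene was called where its Benjamini-Hochberg adjusted p was under 0.05 and its log2 fold change was beyond 0.5 in either direction. Libraries held 15136861 to 46740702 counts. The labels give 2 batches, batch 1 with replicates 1 and 2 and batch 2 with replicate 3 of every group, so that batch 2 alone allows no test. In every group 1 library held far more skeletal muscle RNA than the rest: the summed level of 12 muscle markers ran from 2813 to 17172 CPM for NCD at 22 °C, from 1235 to 9411 CPM for NCD at 4 °C, from 1970 to 18451 CPM for HFD at 22 °C and from 694 to 5752 CPM for HFD at 4 °C. The muscle-rich libraries were replicate 2 on NCD and replicate 3 on HFD, at both temperatures. On HFD these are also the libraries of batch 2, so batch and muscle content cannot be told apart there.

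The window around a gene's start shows whether its sequence holds the element to which CREB and CREM bind. This cAMP response element (CRE) has the letters TGACGTCA, and its half-site has the letters TGACG. Both were searched on both strands, and every full element contains a half-site. RefSeq windows on GRCm38.p6, from 250 bases before to 50 bases after a start, were found for 7 of the 10 members, 13 windows in all. Among all 32851 windows of the table, 1.79% held the full element and 20.8% a half-site. Counted by gene, 2.03% of 27025 genes had the full element in at least 1 window and 23.05% a half-site, at a mean of 1.216 windows per gene. None of the members' windows held the full element. A half-site lay in the single windows of Rgs2 and Pde8a, in 1 of 3 windows of Pde4a and in 1 of 4 windows of Pde4b, and in none of those of Pde7b, Pde4d and Prkar2b. The windows of Pde7b, Rgs2 and Pde4b are shown because Pde7b and Rgs2 had the largest fold changes in cold on HFD and Pde4b the largest in HFD at 4 °C. For Pde4b the window shown is the 1 of its 4 that held a half-site. Capitals mark half-sites, read on either strand. These matches describe letters and not binding.
Pde7b, chr10:20548279-20548578, minus strand: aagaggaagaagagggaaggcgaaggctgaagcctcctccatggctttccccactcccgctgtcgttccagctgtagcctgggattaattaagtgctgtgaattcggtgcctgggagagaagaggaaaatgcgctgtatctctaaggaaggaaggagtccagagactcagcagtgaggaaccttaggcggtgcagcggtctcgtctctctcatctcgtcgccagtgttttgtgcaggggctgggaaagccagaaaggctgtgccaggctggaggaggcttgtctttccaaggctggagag
Rgs2, chr1:144004100-144004399, minus strand: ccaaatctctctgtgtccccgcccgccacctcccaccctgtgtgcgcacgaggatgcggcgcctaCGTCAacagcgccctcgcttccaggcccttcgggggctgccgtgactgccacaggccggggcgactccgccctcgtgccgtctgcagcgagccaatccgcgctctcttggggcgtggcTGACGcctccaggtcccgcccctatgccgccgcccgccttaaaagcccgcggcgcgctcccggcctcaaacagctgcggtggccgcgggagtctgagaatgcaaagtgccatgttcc
Pde4b, chr4:102421305-102421604, plus strand: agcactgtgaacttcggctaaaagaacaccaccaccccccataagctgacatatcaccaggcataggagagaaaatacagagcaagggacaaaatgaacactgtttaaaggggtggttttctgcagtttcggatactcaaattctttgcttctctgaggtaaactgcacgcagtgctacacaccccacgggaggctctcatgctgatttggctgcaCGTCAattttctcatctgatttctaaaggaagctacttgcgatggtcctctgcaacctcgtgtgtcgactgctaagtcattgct

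Cold raised 3 of the 10 members on NCD, namely Pde7b, Pde3b and Crem, and 1 of the 10 on HFD, Pde7b. No member fell. Of all genes tested, 6.27% were called in cold on NCD and 9.58% in cold on HFD, and 3.72% and 5.39% were called as higher. On NCD 4 members had every cold library above every library at 22 °C (Pde3b, Pde7b, Prkar2b and Crem), where 15.2% of all genes did. On HFD this held for 5 members (Pde3b, Pde4b, Pde7b, Rgs2 and Crem), where 15.9% of all genes did. The median log2 fold change of the members was 0.45 on NCD and 0.35 on HFD, and that of all genes was -0.01 and -0.04. The cold contrasts on NCD and on HFD share no library, but 1 estimate of the spread.

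**Figure D1:**
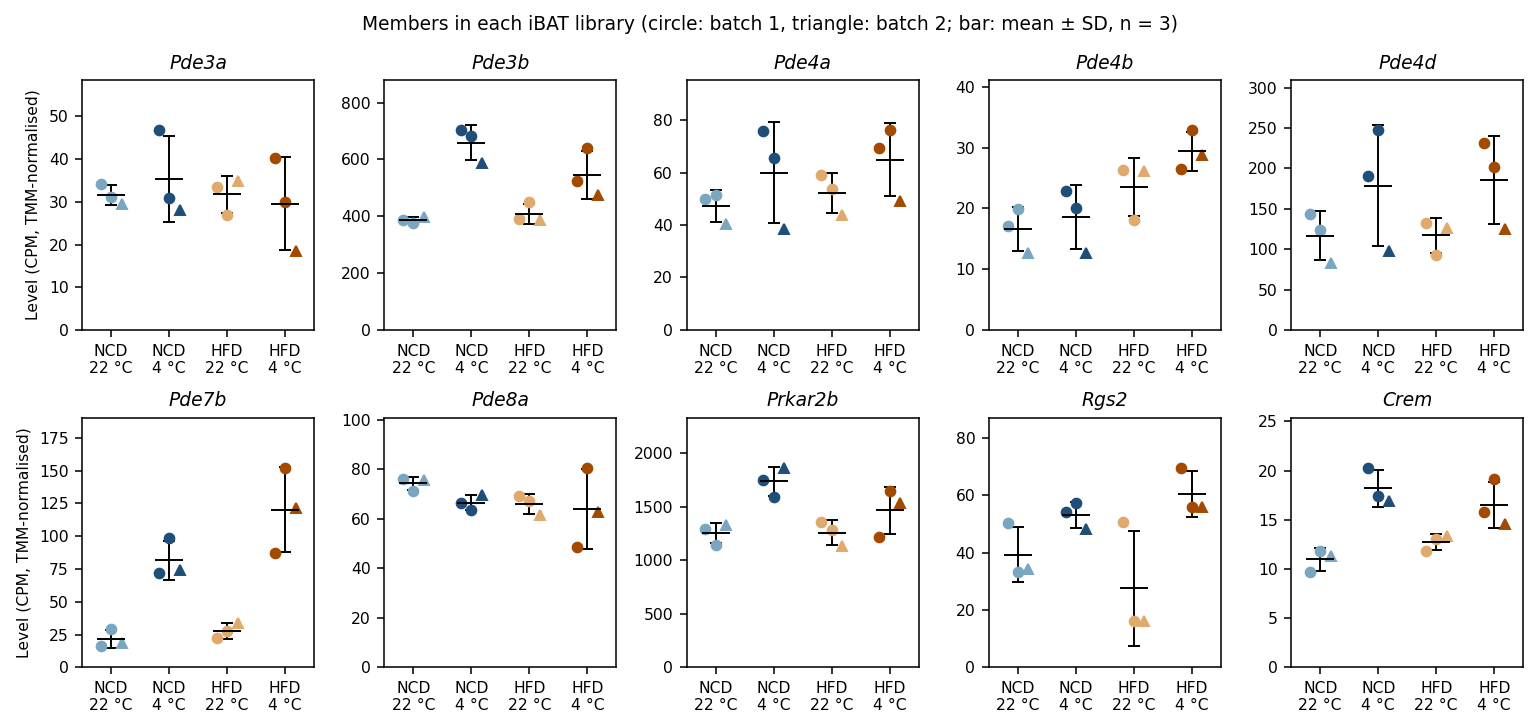
Level of each member in CPM (vertical axis) in the 4 groups; each point is 1 library, circles are batch 1 and triangles batch 2, and the bars give the mean ± SD of 3 libraries. The 6 cold libraries of Pde7b sit between 72.2 and 152 CPM, above the 6 libraries at 22 °C, which end at 33.9 CPM.

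In bulk tissue, a change in the share of a cell type and a change of RNA per cell cannot be told apart. Several marker sums moved with cold. The summed brown adipocyte markers ran from 13968 to 16954 CPM at 22 °C and from 30395 to 34257 CPM at 4 °C on NCD, and from 14367 to 18326 CPM and from 22017 to 27458 CPM on HFD. Within this sum the mean of Ucp1 went from 4203 to 16357 CPM on NCD and from 7021.5 to 13323 CPM on HFD. The median log2 fold change of the 12 markers was 0.21 on NCD, with 10 above 0, and 0.07 on HFD, with 6 above 0. On NCD 4 of those 12 markers rose (Ucp1, Dio2, Elovl3 and Fabp4) and none fell, and Ucp1 changed by 1.96 ± 0.17 (SE) on the log2 scale (adjusted p = 0.000274). On HFD Ucp1 (0.92 ± 0.17, adjusted p = 0.00656), Dio2 and Elovl3 rose and Adipoq fell. The sum of 8 endothelial markers went from 730 to 860 CPM at 22 °C to 961 to 1137 CPM at 4 °C on NCD, with 1 marker called. On HFD it went from 1021 to 1278 CPM to 1243 to 1521 CPM, with none called. The sum of 7 fibroblast and preadipocyte markers was lower in cold on NCD, with 1062 to 1638 CPM against 489 to 570 CPM and 3 markers that fell. On HFD this sum overlapped, with 516 to 750 CPM against 339 to 708 CPM. The sum of 7 white adipocyte markers was lower in cold without overlap, with 175 to 311 CPM against 48.9 to 146 CPM on NCD and 113 to 302 CPM against 45.2 to 82.1 CPM on HFD. At 22 °C most of this sum was Lep, the leptin gene. In the cold the mean of Lep went from 201 to 44.5 CPM on NCD, where no white marker was called, and from 190 to 24.97 CPM on HFD. On HFD Lep fell and Retn, the resistin gene, rose (0.88, adjusted p = 0.00982). The macrophage and leukocyte sum was lower in cold on NCD (83.0 to 105 CPM against 52.3 to 75.3 CPM), with none of 7 markers called. On HFD this sum overlapped (85.5 to 116 CPM against 76.6 to 178 CPM), and Cd68 (1.72, adjusted p = 0.0319) and S100a8 (2.92, adjusted p = 0.0325) rose. The smooth muscle and pericyte sum was lower in cold on HFD (1310 to 1609 CPM against 916 to 1215 CPM), where Rgs5 fell from a mean of 612 to 420 CPM and Cnn1 rose (1.18, adjusted p = 0.0405), with a median log2 fold change of 0.04 over its 11 markers. The skeletal muscle sum given above was lower in the cold library in 6 of 6 pairs with the same diet and replicate number, at 0.339 to 0.548 of the warm library on NCD and 0.312 to 0.439 on HFD. None of its 12 markers was called without a replicate block, while 9 fell on NCD and 11 on HFD with replicate numbers blocked within diet. The part of these shifts in the members' values was not tested.

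Pde7b encodes a high-affinity phosphodiesterase that hydrolyses cAMP and not cGMP. It had the largest fold change of the members in both cold contrasts. On NCD the libraries at 22 °C held 16.6, 29.4 and 18.2 CPM, and those at 4 °C 72.2, 99.0 and 74.4 CPM, replicates 1 to 3 in that order. On HFD they held 22.2, 27.5 and 33.9 CPM at 22 °C and 87.0, 152 and 122 CPM at 4 °C. The ranges did not touch on either diet. This gave a log2 fold change of 1.94 ± 0.27 (SE) on NCD, a fold of 3.83 with a 95% interval of 2.56 to 5.74 (adjusted p = 0.00209). On HFD it was 2.11 ± 0.27, a fold of 4.31 with an interval of 2.87 to 6.46 (adjusted p = 0.00109).

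Pde7b rose in each of the 6 pairs of libraries with the same diet and replicate number, by 3.37 to 5.54 times. It was called in all 12 fits that left out 1 library, in both cold contrasts. In 3 of the 4 groups its highest library was the muscle-rich one. With the 4 muscle-rich libraries left out, the log2 fold change was 2.07 on NCD (adjusted p = 0.0151) and 2.27 on HFD (adjusted p = 0.00603). In batch 1 alone it was called on both diets, at 1.89 (adjusted p = 0.0462) on NCD and 2.27 (adjusted p = 0.0312) on HFD. On HFD these 2 fits keep the same libraries, replicates 1 and 2, and are not separate checks. The cold effect on Pde7b on HFD minus that on NCD was 0.17 on the log2 scale, with an interval of -0.63 to 0.97 (edgeR adjusted p = 0.956). The gene spans chr10:20398004-20725078 (GRCm38, minus strand), and its RefSeq window lies inside that span, away from the outer end.

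Pde3b encodes the membrane-bound, cGMP-inhibited phosphodiesterase through which insulin restrains lipolysis in adipocytes. It lies at chr7:114415281-114539251 on the plus strand. At 22 °C on NCD its level was 387, 376 and 397 CPM, and at 4 °C 703, 684 and 589 CPM. On HFD it was 390, 449 and 387 CPM at 22 °C and 523, 640 and 475 CPM at 4 °C. Cold and warm libraries were apart on both diets, and the gap was narrower on HFD. Cold changed Pde3b by 0.77 ± 0.13 (log2) on NCD (adjusted p = 0.00592) and 0.42 ± 0.13 on HFD (adjusted p = 0.0570), which was not called. The difference of these cold effects was -0.35 with an interval of -0.75 to 0.04 (adjusted p = 0.799), so that a smaller cold effect on HFD was not shown.

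In 3 of the 4 groups the lowest library of Pde3b was the muscle-rich one. Without the 4 muscle-rich libraries its log2 fold change on NCD was 0.72 and was not called (adjusted p = 0.0701). That fit had 8 libraries, 2 in each group. In batch 1 alone, also 8 libraries, it was 0.86 and called (adjusted p = 0.0374). On HFD the adjusted p was 0.0374 with replicate numbers blocked within diet, with a log2 fold change of 0.41 that stayed under the fold threshold.

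Pde3a (chr6:141249269-141507448, plus strand) is the paralogue of Pde3b known best from heart, vessels and oocytes. It was not called in any contrast. The 12 libraries held 18.4 to 46.8 CPM, and the 4 groups overlapped in every contrast. Its log2 fold change was 0.16 ± 0.26 in cold on NCD, with an interval of -0.41 to 0.73, and -0.11 ± 0.26 in cold on HFD, with an interval of -0.68 to 0.46. In 3 of 6 pairs it was higher in the cold. An antisense gene, Gm28523, overlaps 5.82% of the exon bases of Pde3a, and reads of the overlap cannot be assigned with certainty since the strand setting of the counting is not given in the sources used here.

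The Pde4 genes encode the cAMP-specific, rolipram-sensitive phosphodiesterases, which are tied to receptor and PKA complexes in many cells. Pde4d (chr13:108449948-109953461, plus strand) was at 144, 124 and 83.2 CPM on NCD at 22 °C and at 191, 247 and 98.3 CPM at 4 °C. On HFD it was at 133, 92.5 and 126 CPM at 22 °C and at 231, 201 and 125 CPM at 4 °C. In the cold, replicate 3 was the lowest library on either diet, within the range of the warm libraries. The log2 fold changes of 0.61 ± 0.33 (adjusted p = 0.315) and 0.67 ± 0.33 (adjusted p = 0.217) were not called. In batch 1 alone, where cold and warm libraries did not overlap, they were 0.71 (adjusted p = 0.124) and 0.94 (adjusted p = 0.0622). At 1503.5 kb, Pde4d has the longest span of the members, with 20 annotated transcripts that the counts add up.

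Pde4a (chr9:21165714-21213248, plus strand) was at 49.95, 51.5 and 40.4 CPM at 22 °C and at 75.7, 65.5 and 38.6 CPM at 4 °C on NCD. On HFD it was at 59.1, 53.7 and 43.9 CPM at 22 °C and at 69.4, 76.1 and 49.3 CPM at 4 °C. Replicate 3, the library of batch 2, was the lowest of Pde4a in all 4 groups, at 0.546 to 0.797 of the mean of batch 1. Within batch 1 the cold libraries were above the warm ones on both diets. Over all libraries the log2 fold change was 0.34 ± 0.24 in cold on NCD and 0.31 ± 0.24 in cold on HFD. With batch as a term the error fell to 0.12 on both diets, at 0.30 on NCD (adjusted p = 0.170) and 0.30 on HFD (adjusted p = 0.138). In batch 1 alone it was 0.48 on NCD (adjusted p = 0.0944) and 0.37 on HFD (adjusted p = 0.142), and no fit called it.

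Pde4b (chr4:102087543-102607259, plus strand) was the member with the largest diet difference in the cold. On NCD it was at 17.2, 19.8 and 12.7 CPM at 22 °C and at 22.9, 20.1 and 12.7 CPM at 4 °C. On HFD it was at 26.3, 18.03 and 26.2 CPM at 22 °C and at 26.4, 32.8 and 28.8 CPM at 4 °C. All cold libraries on HFD were above all cold libraries on NCD. The log2 fold change of HFD at 4 °C was 0.67 ± 0.23, a fold of 1.59 with an interval of 1.11 to 2.27, and was not called (adjusted p = 0.120). In HFD at 22 °C it was 0.51 ± 0.24 (adjusted p = 0.283), and the libraries overlapped. The summed macrophage and leukocyte markers, of cells in which PDE4B is prominent, ran from 52.3 to 75.3 CPM in NCD at 4 °C and from 76.6 to 178 CPM in HFD at 4 °C, and 2 of the 7 markers tested rose in that contrast. At 22 °C this macrophage sum overlapped (83.0 to 105 CPM on NCD, 85.5 to 116 CPM on HFD). Other sums moved with diet without overlap as well. At 4 °C the endothelial sum was higher on HFD (1243 to 1521 against 961 to 1137 CPM) and the brown adipocyte sum lower. At 22 °C the endothelial (1021 to 1278 against 730 to 860 CPM) and Schwann cell sums were higher. The fibroblast and erythroid sums were lower there. The part of these shifts in the Pde4b values was not tested.

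**Figure D2:**
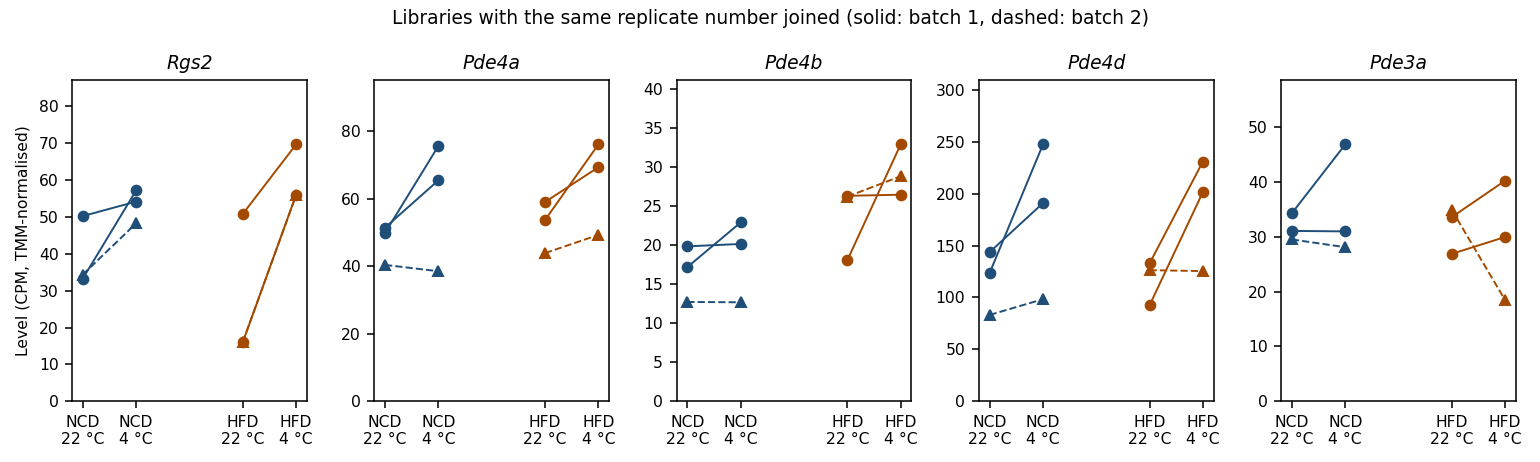
Levels in CPM (vertical axis) of Rgs2, Pde4a, Pde4b, Pde4d and Pde3a, with libraries of the same diet and replicate number joined from 22 °C to 4 °C; solid lines with circles are batch 1 and dashed lines with triangles batch 2. All 6 lines of Rgs2 rise, by 1.08 to 3.496 times, and the batch 2 library of Pde4a is the lowest of its group in all 4 groups.

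Pde8a, a high-affinity cAMP phosphodiesterase that is insensitive to the common inhibitor IBMX, stayed between 48.5 and 80.6 CPM in the 12 libraries. It lies at chr7:81213596-81334533 on the plus strand. It was at 76.0, 71.2 and 75.6 CPM on NCD at 22 °C and at 66.3, 63.6 and 69.6 CPM at 4 °C. On HFD it was at 69.1, 67.1 and 61.4 CPM at 22 °C and at 48.5, 80.6 and 62.9 CPM at 4 °C. Both NCD at 4 °C and HFD at 22 °C lay below NCD at 22 °C without overlap, but by little. Its log2 fold changes were -0.16 ± 0.15 in cold on NCD, with an interval of -0.49 to 0.17, and -0.17 ± 0.15 in HFD at 22 °C, with an interval of -0.50 to 0.15. These contrasts share the libraries of NCD at 22 °C. Neither was called (adjusted p = 0.609 and 0.583).

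Prkar2b encodes RIIβ, the regulatory subunit of PKA that predominates in adipose tissue and holds the catalytic subunits inactive until cAMP binds. The gene lies at chr12:31958476-32061296 on the minus strand. Its libraries held 1292, 1142 and 1325 CPM on NCD at 22 °C and 1751, 1589 and 1863 CPM at 4 °C. On HFD they held 1361, 1280 and 1129 CPM at 22 °C and 1219, 1642 and 1536 CPM at 4 °C. The NCD groups did not overlap, whereas on HFD the cold replicate 1 lay among the warm libraries. The difference was 0.47 ± 0.14 (log2) on NCD, with an interval of 0.17 to 0.77, and 0.22 ± 0.14 on HFD. Neither passed edgeR's test (adjusted p = 0.0614 and 0.320), and the estimate on NCD was under the fold threshold too. With DESeq2 the adjusted p on NCD was 0.0162, at a log2 fold change of 0.46 that stayed under the fold threshold. In 3 of the 4 groups the lowest library of Prkar2b was the muscle-rich one.

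Rgs2 encodes a GTPase-activating protein that shortens signalling through Gq and also restrains adenylyl cyclase. It is a known target of cAMP in several cell types. The gene lies at chr1:143999338-144004161 on the minus strand. On NCD it was at 50.2, 33.2 and 34.4 CPM at 22 °C and at 54.1, 57.1 and 48.2 CPM at 4 °C. On HFD it was at 50.8, 16.0 and 16.0 CPM at 22 °C and at 69.6, 55.9 and 55.8 CPM at 4 °C. Warm and cold libraries were apart on HFD, and on NCD the warm replicate 1 lay within the cold range. In both warm groups replicate 1 was the highest library.

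The log2 fold change of Rgs2 in cold on HFD was 1.14 ± 0.38, a fold of 2.20 with an interval of 1.24 to 3.92, and it was not called (adjusted p = 0.0753). On NCD it was 0.44 ± 0.37 (adjusted p = 0.568). Libraries with the same replicate number deviated together within a diet, and with that number as a block the change on HFD was 1.35 ± 0.26 and was called (adjusted p = 0.0105). The block thus gave 2 members instead of 1 on HFD, Pde7b and Rgs2, and left the 3 members on NCD. Of all genes, that fit called 12.9% on HFD and 8.86% on NCD. On HFD replicate 3 is also the muscle-rich library and batch 2 at both temperatures, so what the block takes up cannot be told apart. No source used here says what a replicate number shares. A single library decided the call as well. Without replicate 1 of HFD at 22 °C the log2 fold change was 1.95 (adjusted p = 0.00122), and that of HFD at 22 °C, -0.52 ± 0.38 over all libraries (adjusted p = 0.509), became -1.33 (adjusted p = 0.0115). The cold effect on HFD minus that on NCD was 0.70 with an interval of -0.46 to 1.86 (adjusted p = 0.858), or 0.89 with the block (adjusted p = 0.519).

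Crem encodes CREM, a relative of CREB. From an internal promoter it also gives the short repressor ICER, which is induced by cAMP and shuts CRE-driven genes off again. The gene lies at chr18:3266048-3337748 on the minus strand. The counts add up all 39 annotated transcripts of the gene, so ICER and the longer forms are not separated. Crem was at 9.70, 11.9 and 11.3 CPM on NCD at 22 °C and at 20.3, 17.4 and 16.9 CPM at 4 °C. On HFD it was at 11.9, 13.0 and 13.3 CPM at 22 °C and at 15.8, 19.2 and 14.6 CPM at 4 °C. The cold libraries were above the warm ones on both diets.

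Crem changed by 0.73 ± 0.14 (log2) on NCD (adjusted p = 0.0104) and 0.37 ± 0.14 on HFD (adjusted p = 0.104), and it was called on NCD. The difference of these effects was -0.36 with an interval of -0.78 to 0.07 (adjusted p = 0.806). On NCD the call was lost in batch 1 alone, at 0.80 (adjusted p = 0.0672), and without the 4 muscle-rich libraries, at 0.81 (adjusted p = 0.0643). Both fits had 8 libraries. An antisense transcript, Gm6225, overlaps 8.01% of the exon bases of Crem.

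**Figure D3:**
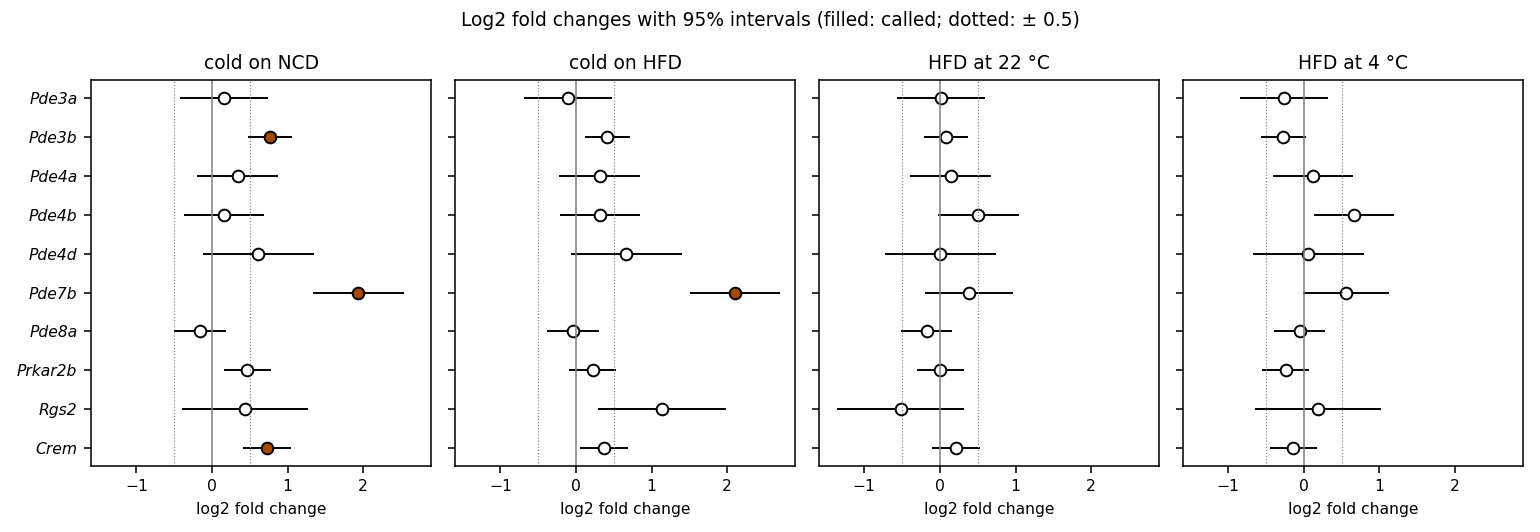
Log2 fold change of each member (horizontal axis) with its 95% interval in the 4 contrasts; filled points were called and dotted lines mark 0.5 in either direction. Pde7b stands apart in both cold contrasts, at 1.94 and 2.11, and no point is filled in either diet contrast.

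Diet alone called none of the 10 members at either temperature. In HFD at 22 °C 2.09% of all genes were called, and no member had an unadjusted p under 0.05. In HFD at 4 °C 4.75% of all genes were called, and 1 member, Pde4b, had an unadjusted p under 0.05. These shares depended on single libraries: they were 0.674% without replicate 2 of HFD at 22 °C and 1.38% without replicate 1 of HFD at 4 °C. DESeq2 also called 0 members in each. The median log2 fold change of the members was 0.04 at 22 °C, against 0.03 over all genes, and 0.00 at 4 °C, against 0.02. After Pde4b, the largest positive difference at 4 °C was that of Pde7b, at 0.56 ± 0.26 (adjusted p = 0.223). The largest negative one was that of Pde3b, at -0.27 ± 0.13 (adjusted p = 0.235).

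The interaction of diet and temperature called none of the members and none of the 16737 genes (0%) with edgeR. An unadjusted p under 0.05 was reached by 1091 genes and by 0 members. DESeq2's likelihood ratio test called 55 genes and 0 members. The test of any difference among the 4 groups, at an adjusted p under 0.001, called 2.55% of all genes and 1 member, Pde7b (adjusted p = 0.000280). At an adjusted p under 0.05 it called 24.3% of all genes and 3 members, adding Pde3b (adjusted p = 0.00378) and Crem (adjusted p = 0.00906). The call of Pde7b at 0.001 was lost without replicate 1 or 3 of NCD at 22 °C, replicate 2 of HFD at 22 °C or replicate 3 of HFD at 4 °C.

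Levels can be compared between the members only per length. Per kb of merged exons, Prkar2b had the highest level in all 4 groups, with 343 ± 26.7 CPM per kb (SD, n = 3) for NCD at 22 °C, and Pde3b the next, with 42.4 ± 1.16. Pde8a followed with 18.4 ± 0.657. Rgs2 at 10.8 ± 2.61 and Pde4d at 9.73 ± 2.56 overlapped, and Pde4a stood at 6.18 ± 0.783. Pde3a at 2.48 ± 0.192, Crem at 1.86 ± 0.190, Pde7b at 1.72 ± 0.558 and Pde4b at 1.57 ± 0.340 formed the low end, where the ranges of Crem, Pde7b and Pde4b overlapped and that of Pde7b reached into that of Pde3a. In the cold Pde7b reached 6.58 ± 1.20 on NCD and 9.67 ± 2.63 on HFD, means that lay within the range of Pde4a in these groups. With the length of the longest transcript instead, Prkar2b and Pde3b kept the first and second place in all 4 groups, Pde4d took the third and Pde3a the last. On that scale Pde7b stood at 22.4 ± 6.09 CPM per kb in HFD at 4 °C, a mean above the range of Pde4a (10.6 to 16.4), and the libraries of both overlapped.

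The patterns most like those of the members were sought among 10316 tested genes with a mean of at least 5 CPM, by Pearson's r of log2 CPM over the 12 libraries. For Pde7b they were Slc27a2, a very long-chain acyl-CoA synthetase (r = 0.977), Lpl, the lipoprotein lipase (0.973), and the kinase gene Mapkapk2 (0.973). For Pde3b they were Golph3 (0.973), Aste1 (0.969) and Pdp2, a phosphatase that activates pyruvate dehydrogenase (0.967). For Crem they were Gpam, the mitochondrial glycerol-3-phosphate acyltransferase (0.952), the bicarbonate transporter gene Slc4a4 (0.943) and Zfyve16 (0.943). Spearman's rho kept Slc27a2 and Mapkapk2 among the first 3 for Pde7b and Aste1 for Pde3b, and none of the 3 for Crem. These r values share the 4 groups and the depth of the same libraries, and they describe the order of levels.

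The rest of the pathway was read from 6 lists with 90 other genes, of which 81 were tested. In cold on NCD, where 6.27% of all genes were called, 8 of the 81 rose and 1 fell. In cold on HFD, where 9.58% of all genes were called, 5 of the 81 rose and 3 fell. With replicate numbers blocked within diet, 20 of them were called on NCD and 19 on HFD, where 8.86% and 12.9% of all genes were. With 1 library left out, the counts ran from 2 (without replicate 3 of NCD at 22 °C) to 11 on NCD and from 3 (without replicate 1 of HFD at 22 °C) to 12 on HFD. In HFD at 22 °C and in HFD at 4 °C 3 rose and none fell, where 2.09% and 4.75% of all genes were called. The list of cAMP-responsive targets had a median log2 fold change of 1.41 in cold on NCD and 0.63 in cold on HFD. The medians of the other 5 lists ran from -0.29 to 0.28 over both contrasts. All 6 lists were chosen with earlier results of these data known, so these medians are not an independent test. Over the 4 contrasts 23 calls were made, of which 7 held in each of the 12 fits without 1 library: those of Pde1c in all 4 contrasts, of Nr4a2 and Gadd45g in cold on HFD and of Pde10a in HFD at 4 °C. With the block, 16 of the 17 calls in cold remained, and Rgs11 on NCD was lost (adjusted p = 0.0617).

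**Figure D4:**
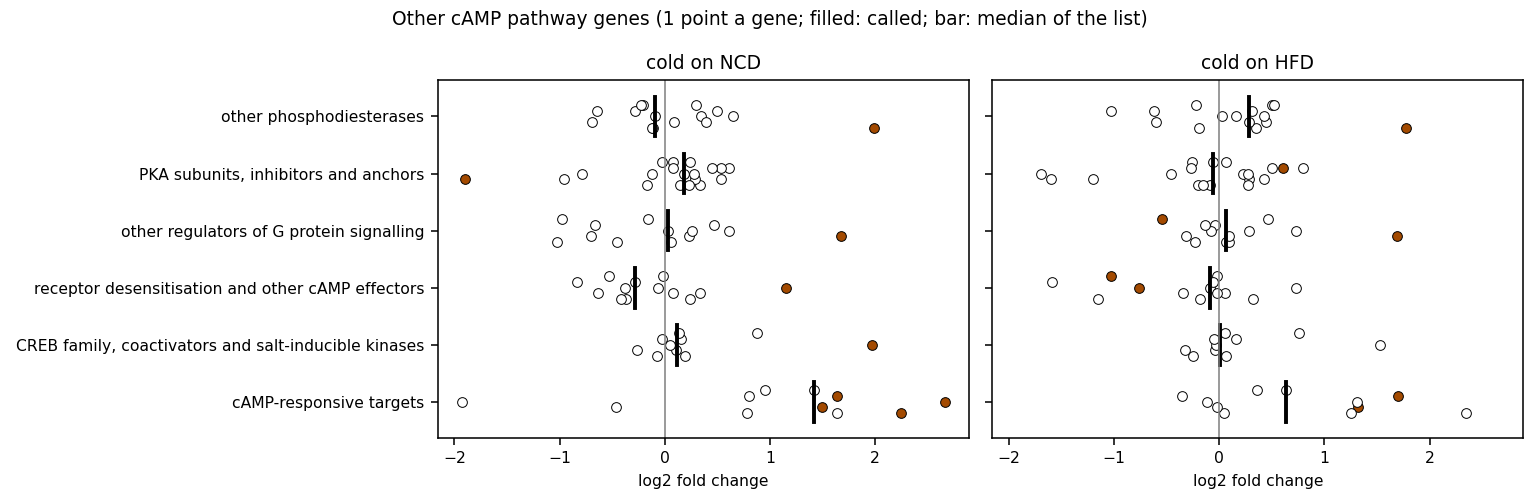
Log2 fold change (horizontal axis) of the 81 tested genes of 6 cAMP pathway lists in cold on NCD and cold on HFD; each point is 1 gene, filled points were called and bars are list medians. The bar of the cAMP-responsive targets lies at 1.41 on NCD and 0.63 on HFD.

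Among the 15 other phosphodiesterase genes tested, Pde1c, a calcium- and calmodulin-activated enzyme for cAMP and cGMP, was called in all 4 contrasts. Its mean level was 0.658 ± 0.141 CPM (SD, n = 3) in NCD at 22 °C, from 10 to 22 counts, and 2.58 ± 0.399 CPM in NCD at 4 °C. On HFD it was 3.19 ± 0.648 CPM at 22 °C and 11.02 ± 3.61 CPM at 4 °C. The groups did not overlap in any of the 4 contrasts. Its log2 fold change was 1.99 ± 0.29 in cold on NCD and 1.77 ± 0.26 in cold on HFD (adjusted p = 0.00321 and 0.00223). It was 2.31 ± 0.29 in HFD at 22 °C and 2.10 ± 0.27 in HFD at 4 °C (adjusted p = 0.00342 and 0.00221). Each contrast shares libraries with 2 others. In HFD at 4 °C the cGMP-specific Pde5a (0.94) and the dual-specificity Pde10a (0.94) rose as well, and the other 12 were not called in that contrast.

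Of the 11 cAMP-responsive targets tested, 4 rose in cold on NCD. They were the nuclear receptor genes Nr4a3 (2.66 ± 0.57, log2) and Nr4a2 (1.50 ± 0.29), Ppargc1a, the coactivator of mitochondrial biogenesis (2.25 ± 0.50), and the stress gene Gadd45g (1.63 ± 0.35). Ppargc1a was at 70.5, 49.5 and 53.5 CPM in NCD at 22 °C and at 274, 475 and 74.8 CPM in NCD at 4 °C. Without replicate 2 of NCD at 4 °C its log2 fold change was 1.59 and was not called (adjusted p = 0.0723). Its call on NCD held in 8 of 12 fits without 1 library. The call of Nr4a3 also held in 8 of 12, from 13 to 29 counts per library in NCD at 22 °C. On HFD the log2 fold change of Ppargc1a was 1.26 ± 0.48 (adjusted p = 0.116). On HFD Gadd45g (1.70 ± 0.35) and Nr4a2 (1.32 ± 0.29) rose. Among 10 genes of the CREB family, its coactivators and the salt-inducible kinases, Sik1, a kinase that phosphorylates CREB coactivators out of the nucleus, rose in cold on NCD (1.97 ± 0.47), a call that held in 8 of 12 fits without 1 library, and none of the 10 was called on HFD. Sik1 was at 22.6 to 51.3 CPM in NCD at 22 °C and at 48.9 to 182 CPM in NCD at 4 °C, which overlap. On HFD it went from 25.1 to 46.6 CPM to 83.3 to 125 CPM without overlap, a log2 fold change of 1.53 ± 0.46 (adjusted p = 0.0540), and its interaction of diet and temperature was not called (adjusted p = 0.935).

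Of the 19 genes of PKA subunits, inhibitors and anchors, Akap5, an anchoring protein gene, fell in cold on NCD (-1.90 ± 0.40). Akap12 rose in cold on HFD (0.61 ± 0.18, adjusted p = 0.0483), and its log2 fold change on NCD was as large (0.61 ± 0.18, adjusted p = 0.0600) but not called. Akap2 rose in HFD at 22 °C (0.67 ± 0.15). The call of Akap12 held in 2 of 12 fits without 1 library and that of Akap2 in 1 of 12. Of the 13 other RGS genes tested, Rgs11 rose in cold on NCD (1.68 ± 0.42) and on HFD (1.69 ± 0.39), at mean levels of 0.404 to 2.28 CPM. Its calls held in 6 of 12 such fits on NCD and in 9 of 12 on HFD. Rgs5, a pericyte gene, fell in cold on HFD (-0.54 ± 0.13). Of the 13 genes of receptor desensitisation and other cAMP effectors, Rapgef4, which encodes the cAMP sensor EPAC2, rose in cold on NCD (1.15 ± 0.26). Its call held in 7 of 12 such fits. Popdc2 (-1.03 ± 0.25), a cAMP-binding Popeye protein gene of striated muscle, and the receptor kinase gene Grk5 (-0.76 ± 0.21) fell in cold on HFD, and the call of Grk5 held in 4 of 12 such fits. Rapgef3, which encodes EPAC1, rose in HFD at 22 °C (0.58 ± 0.13), a call that held in 1 of 12. The skeletal muscle sums were lower in the cold in the same pairs, and their part in the Popdc2 value was not tested. The endothelial sums were higher on HFD at both temperatures. Their part in the values of Rapgef3, Pde5a and Pde10a was not tested.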

How the data were processed

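Total RNA of iBAT was depleted of ribosomal RNA, made into Illumina TruSeq libraries and sequenced in pairs. The authors filtered reads with cutadapt and ran salmon on the transcripts of GENCODE M22 and RNAcentral 5 (GRCm38; versions and strand setting are not given in the sources used here). The deposited table holds unnormalised estimated counts for each gene, written as whole numbers, with 1 column per library. Groups and batches followed the labels, and nothing says whether replicates shared a cage or day.

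Genes were kept with filterByExpr (minimum count 10) and scaled with TMM. One quasi-likelihood fit (edgeR 4.0.16, R 4.3.3) covered all 12 libraries with a mean per group, and with p-values adjusted by Benjamini and Hochberg over all 16737 genes. A call in a cold or diet contrast needed both 0.05 for that p and 0.5 for the size of the log2 fold change. For the interaction 0.05 sufficed, and for the 4-group test 0.001 was used. A library with 0 counts allows up to 3, and intervals cover the fitted spread. The steps were tested on simulated data.

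Named genes were the 10 members, the called pathway genes with the largest fold change (at most 3 per list, contrast and direction), the 3 genes most like each of the 3 members with the smallest 4-group p (log2 CPM with a prior count of 2), and Ucp1. The members and lists were chosen with earlier results of these data known. Alternatives were DESeq2 1.42.0, alone and with apeglm 1.24.0, DESeq2's size factors, other count filters, batch as a term, replicate blocks, batch 1 alone, only the 6 libraries compared, no minimum fold change, glmTreat and each library left out. The fit without the muscle-rich libraries was chosen after seeing the data. Within a diet, warm and cold libraries of the same number departed from their means in the same direction over genes (r of 0.219 to 0.456 on NCD and 0.155 to 0.386 on HFD). The pairing rests on these values alone, and across diets it did not hold (from -0.214 to 0.365). Within a diet the muscle-rich libraries also share a replicate number, and their part in these values was not tested. Coordinates and lengths came from GENCODE M21 on GRCm38, with the members' identifiers as in the count table.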

Additional observations from a re-analysis of the deposited data

How the results depend on the processing

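In cold on NCD, 3 members were called under most alternatives, 2 in batch 1 alone, 1 with glmTreat and 1 in the 8 libraries lowest in skeletal muscle markers. In cold on HFD, 1 member was called, and 2 with DESeq2, DESeq2 with apeglm, no filter on low counts, the replicate block and the replicate block within diet. The block changed no other member's call in the cold contrasts. With each library left out, the count ran from 1 to 2 in cold on HFD, from 0 to 1 in HFD at 22 °C and from 0 to 2 in the 4-group test. The 4-group test called 1 member, 3 with DESeq2, 2 with no filter, 0 in batch 1 alone and 0 in the 8 libraries lowest in muscle markers. Fewer libraries enter the last fits, and for the rest the cause was not tested. Over all genes, DESeq2 called 812 against 349 in HFD at 22 °C, 1314 against 795 in HFD at 4 °C and 2516 against 427 in the 4-group test. Of the other pathway genes it called 17 against 9 in cold on NCD, 16 against 8 in cold on HFD, 6 against 3 in HFD at 22 °C and 10 against 3 in HFD at 4 °C. Of all genes DESeq2 called 8.56%, 11.6%, 4.79% and 8.45% in these contrasts. The 8 libraries lowest in muscle markers gave 281 genes against 1049 in cold on NCD and 731 against 1603 in cold on HFD, with 4 and 6 pathway genes. The replicate block within diet gave 20 and 19 pathway genes in cold on NCD and on HFD, and 1483 (8.86%) and 2153 (12.9%) of all genes. With each library left out, all genes called ran from 490 to 1112 in cold on NCD, 1013 to 1672 in cold on HFD, 117 to 369 in HFD at 22 °C, 239 to 992 in HFD at 4 °C and 106 to 255 in the 4-group test. In cold on NCD and in cold on HFD, batch 1 alone called 352 and 416 of all genes, and glmTreat 175 and 357.

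Values that changed sign were all uncalled. In cold on HFD, Pde3a was 0.22 in batch 1 alone and 0.22 in the 8 libraries lowest in muscle markers, fits that keep the same HFD libraries. Pde8a was 0.00044 with no filter. In HFD at 22 °C, Pde3a, Pde4d and Prkar2b were -0.026, -0.029 and -0.029 with DESeq2, -0.0073, -0.0073 and -0.014 with apeglm, -0.013, -0.016 and -0.017 with DESeq2's size factors, -0.012, -0.014 and -0.014 with no filter and -0.017, -0.020 and -0.022 with a mean of at least 10 counts. In batch 1 alone Pde3a was -0.11 and Pde4d -0.25 in HFD at 22 °C, and Pde4d was -0.018 in HFD at 4 °C. In the 8 libraries lowest in muscle markers Pde3a was -0.077 and Pde4d -0.0087 in HFD at 22 °C.

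With each library left out, the range was -0.088 to 0.31 for Pde3a and -0.0038 to 0.39 for Pde4b in cold on NCD, and -0.37 to 0.15 for Pde3a and -0.24 to 0.15 for Pde8a in cold on HFD. In HFD at 22 °C it was -0.072 to 0.11 for Pde3a, -0.22 to 0.15 for Pde4d and -0.091 to 0.076 for Prkar2b. In HFD at 4 °C it was -0.13 to 0.31 for Pde4a, -0.25 to 0.36 for Pde4d and -0.26 to 0.14 for Pde8a. With 3 libraries per group, the 95% intervals of every uncalled member but Pde8a reached past the fold threshold in the cold contrasts, so that a missing call does not show a level that stayed the same.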
